A study of Rattus norvegicus with 6 samples.

Results

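Transcripts of 9 genes of caspase signalling and inflammatory cell death were followed in the vestibular sensory epithelium of rats given an ototoxic compound. The genes were Nlrp3, Casp1, Casp4, Casp12, Gsdmd, Casp8, Casp9, Ripk3 and Mlkl, taken by their symbols from a table of 32883 genes, and each symbol matched a single row. The study asked which transcripts respond to ototoxic stress that builds up slowly. The 3 IDPN-4wk animals were adult male Long-Evans rats whose drinking water held IDPN (3,3'-iminodipropionitrile, a nitrile toxic to vestibular hair cells) at 20 mM for 4 weeks. The 3 control animals were adult male rats of the same strain given plain water. A library is 1 animal, made from its 2 utricles and 6 cristae together, and whole epithelium was used without sorting cells. Libraries held from 13358678 to 18561991 counts, and a limit of 3 counts corresponded to between 0.155 and 0.216 CPM, counts relative to the total of a library after TMM scaling. Levels below are in CPM, with the mean ± SD over the animals.

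Cells can be dismantled in several regulated ways, and these genes cover several of them. In pyroptosis, a sensor such as NLRP3 assembles an inflammasome that activates caspase-1, while caspase-4 responds to bacterial lipopolysaccharide in the cytosol, and either enzyme can cleave gasdermin D, whose freed part forms pores in the plasma membrane. In apoptosis, caspase-8 starts the route from death receptors and caspase-9 the route from mitochondria. In necroptosis, which caspase-8 restrains, the kinase RIPK3 phosphorylates MLKL, which then ruptures the membrane. These proteins are largely controlled by cleavage, phosphorylation and assembly, which RNA levels do not report.

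The values of the 9 genes pointed in different directions. In IDPN-4wk animals, Casp4 fell to 61.5% and Casp12 to 62.4% of their control means, and these were the genes of the 9 past both thresholds, an edgeR adjusted p under 0.05 and a fold change over 1.5. Gsdmd averaged 150% of control and met the adjusted p but not the fold change, while Ripk3 averaged 165% of control and met the fold change but not the adjusted p. Nlrp3, Casp1, Casp8, Casp9 and Mlkl met neither threshold. All 9 genes passed the filter on low counts. Of these, 2 were called lower, where 6.62% of all 14352 genes tested were, and 0 were called higher, where 3.09% of all genes were. An adjusted p under 0.05 alone was found for 3 of the 9 genes and for 19.4% of all genes. The libraries of the groups did not overlap in 4 of the 9 genes, compared with 37.8% of all genes, a similar share. At an unadjusted p under 0.05, edgeR gave 4 of the 9 genes, Casp4 and Casp12 as lower and Gsdmd and Ripk3 as higher, and 33.1% of all genes. DESeq2 with both thresholds called 2 lower and 0 higher. Over the 9 genes the median of the log2-Fold changes was 0.17, and over all genes tested it was 0.02.

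**Figure D1:**
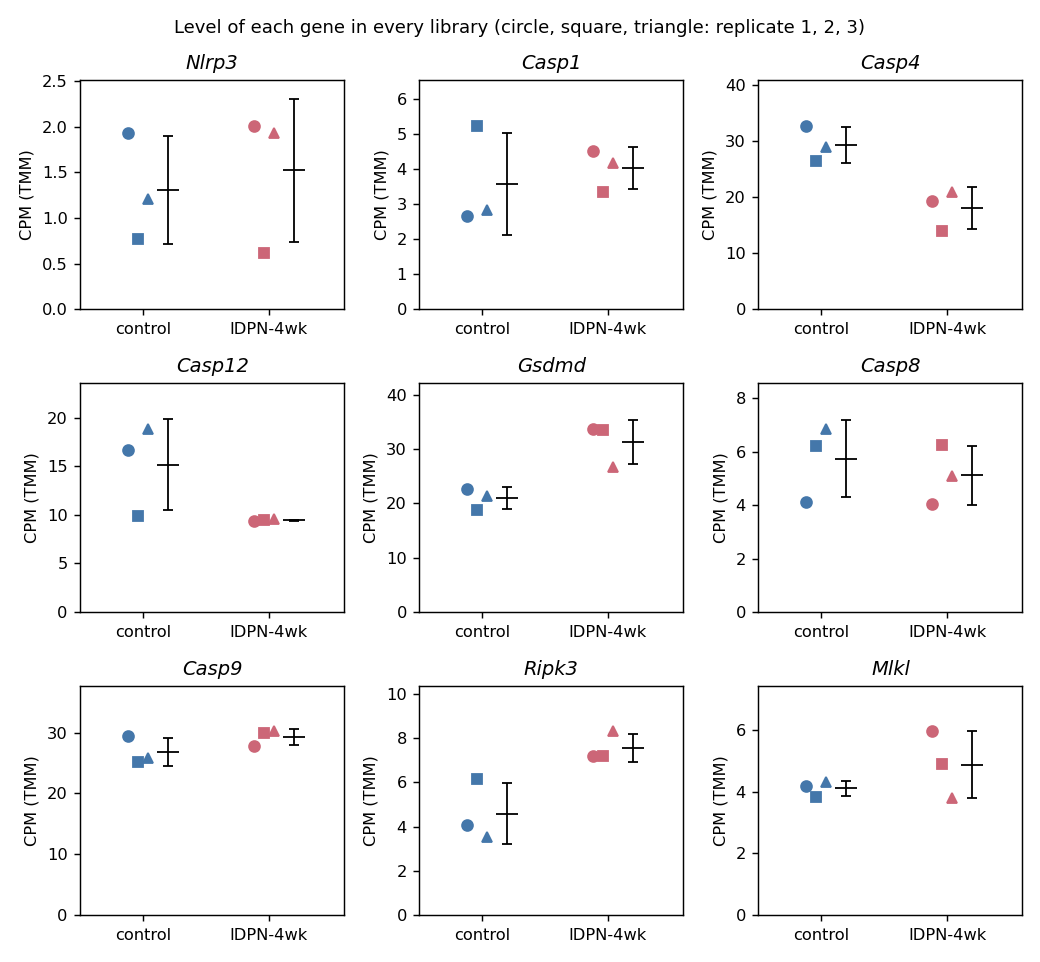
Level of each of the 9 genes in every library, in CPM after TMM scaling on axes that start at 0 (blue, control; red, IDPN-4wk; circle, square and triangle, replicates 1, 2 and 3; black bar, mean ± SD, n = 3). The control and IDPN-4wk libraries stand apart for Casp4, Casp12, Gsdmd and Ripk3 and overlap for the other genes; in Casp12 the control library nearest to the treated ones is at 9.92 CPM and the highest treated library at 9.53 CPM.

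The labelled tissue was checked against its marker genes. All 10 hair cell markers were expressed, and all 10 were lower in IDPN-4wk animals, 5 of them past both thresholds, with a summed level of 3356 to 3472 CPM in the control and 2181 to 2585 CPM in the IDPN-4wk libraries. The 8 supporting cell markers summed to between 9981 and 11013 CPM in control and to between 5593 and 6823 CPM in IDPN-4wk libraries. Otog was the largest part of this sum, and over the list 6 genes were lower, 3 of them past both thresholds, and 2 higher, with a median of -0.33 on the log2 scale. Schwann cell markers, from the nerve under the epithelium, summed to 12397 to 15566 CPM and 8953 to 12350 CPM, respectively. Macrophage markers overlapped between the groups (120 to 164 CPM and 99.5 to 202 CPM), as did stroma markers (879.9 to 1048 CPM and 823 to 917 CPM), endothelium markers (281 to 359 CPM and 255 to 285 CPM) and red blood cell markers (95.3 to 113 CPM and 110 to 221 CPM). In the last, all 3 genes tested had positive values and Hbb was called higher (0.66, edgeR Padj 0.0380). Among the stroma markers Col1a1 was called higher (0.74) and Lum lower (-1.42). Neutrophil markers summed to at most 3.61 CPM and B cell and dendritic cell markers to at most 4.31 CPM in any library. Markers of T and NK cells summed to 16.4 to 19.4 CPM and 12.9 to 16.0 CPM, mostly from the 2 tested, Cd4 (log2-Fold change -0.95, edgeR Padj 0.0510) and Cd3g (0.73, edgeR Padj 0.0971), while Cd3d and Cd3e were at 7 counts or fewer in each library. The epithelium was thus a mixture. From such bulk samples alone, a smaller number of cells of a type and less RNA per cell cannot be told apart. For hair cells, the paper counted cells in other rats given this treatment and reported a decrease only in the centre of the crista. It also reported weaker label per hair cell for several, but not all, of the hair cell products it measured. The part of hair cell and supporting cell RNA in the lower levels of Casp4 and Casp12 was not tested.

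Nlrp3 (ENSRNOG00000003170), the sensor of the best known inflammasome, was the gene with the fewest counts, from 11 to 30 in a library. Its levels were 1.94, 0.77 and 1.20 CPM in control animals 1, 2 and 3, and 2.01, 0.62 and 1.93 CPM in IDPN-4wk animals 1, 2 and 3. The second animal of each group had the lowest level and the groups overlapped throughout. The log2-Fold change was 0.19, with an interval from -0.94 to 1.32 (SE 0.51, edgeR Padj 0.832), which includes a change by the threshold in either direction. Leaving out control 2, IDPN-4wk 1 or IDPN-4wk 3 turned its sign.

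Casp1 (ENSRNOG00000007372) encodes the inflammasome protease that matures interleukin-1 beta and interleukin-18. Control animals had 2.65, 5.24 and 2.83 CPM, and IDPN-4wk animals had 4.53, 3.35 and 4.18 CPM. Control 2 held the highest level of all 6 and the other control animals the lowest, and thus the treated animals lay inside the control range. The log2-Fold change was 0.17 (SE 0.31, 95% interval -0.52 to 0.85, edgeR Padj 0.747). The value was -0.01 without control 1 and 0.55 without control 2.

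Casp4 (ENSRNOG00000033697) encodes the inflammatory caspase that senses lipopolysaccharide. Its levels were 32.7, 26.3 and 28.9 CPM in control animals, and 19.3, 13.9 and 20.9 CPM in IDPN-4wk animals. Every control library was above every IDPN-4wk library. Casp4 fell by 0.71 on the log2 scale (SE 0.16, 95% interval -1.06 to -0.36, edgeR Padj 0.0107), its mean being 29.3 ± 3.22 CPM for control and 18.0 ± 3.67 CPM for IDPN-4wk animals (SD, n = 3 per group). Leaving out each of the 6 libraries in turn moved the change to between -0.84 and -0.55. It passed both thresholds in 5 of these fits and missed the fold change in the fit without IDPN-4wk 2, the animal with the lowest level (-0.55, edgeR Padj 0.0266). Tested against the fold change of 1.5 itself with glmTreat of edgeR, Casp4 was not called (Padj 0.913), nor was Casp12.

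Casp12 (ENSRNOG00000033434) encodes a caspase of the same inflammatory group that is associated with the endoplasmic reticulum. Control animals had 16.7, 9.92 and 18.9 CPM, and IDPN-4wk animals had 9.42, 9.44 and 9.53 CPM. The treated animals were nearly alike, and control 2 lay just above them. Casp12 fell by 0.68 on the log2 scale (SE 0.21, 95% interval -1.15 to -0.21, edgeR Padj 0.0482), with means of 15.2 ± 4.67 CPM for control and 9.46 ± 0.0583 CPM for IDPN-4wk animals (SD, n = 3 per group). With this adjusted p close to the threshold, the call held in 1 of the 6 leave-one-out fits, that without control 2 (-0.91, Padj 0.00480), and the adjusted p ranged from 0.00480 to 0.191 over the 6 edgeR fits. The log2-Fold change was from -0.91 to -0.49 in these fits, and it was -0.57 with libraries scaled by their size alone (edgeR Padj 0.0735).

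Casp1, Casp4 and Casp12 are neighbours in the RefSeq annotation of rat chromosome 8 (build GRCr8), with no other coding gene between them, and they are paralogs among which the authors' counting program can divide shared reads. How many reads they share was not measured here. Ratios of their raw counts do not depend on how libraries are scaled. For every Casp1 count there were 12.4, 5.03 and 10.2 Casp4 counts in control animals and 4.27, 4.14 and 4.98 in IDPN-4wk animals. This ratio was lower in each treated animal than in each control animal, narrowly so for control 2. The Casp12 counts for every Casp1 count were 6.29, 1.89 and 6.68 in control and 2.08, 2.82 and 2.28 in IDPN-4wk animals. The Casp12 counts for every Casp4 count were 0.509, 0.377 and 0.654 in control and 0.487, 0.680 and 0.457 in IDPN-4wk animals. Both ratios of Casp12 overlapped between the groups. No test is given for these ratios, which were picked with their values in view.

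Promoter sequences of 6 of the 9 genes, Nlrp3, Casp1, Casp12, Casp9, Ripk3 and Mlkl, were taken from RefSeq and cover 250 bases before and 50 bases after the start of the gene. Those of Casp4, Casp8 and Gsdmd were not analysed here. Both strands were searched for the core of the interferon-stimulated response element, GAAA and GAAA with any 2 bases between them, and for TTCNNNGAA, the gamma-activated site of interferon signalling. The first was present in the promoters of Casp1 and Casp12 and in 3.92% of 33469 rat promoters of the same length. The second was present in those of Casp12 and Nlrp3 and in 8.87% of all promoters. The matches of Casp1 and Casp12 to the first are the same 10 letters at similar distances, beginning 28 and 38 bases before the start. Both sequences are shown because these neighbouring genes share the match. They are printed 5′ to 3′ on the plus strand up to the base before the start, and capitals mark the match, which reads as the core on the opposite strand.
Casp1, chr8:10872580-10872829 (GRCr8): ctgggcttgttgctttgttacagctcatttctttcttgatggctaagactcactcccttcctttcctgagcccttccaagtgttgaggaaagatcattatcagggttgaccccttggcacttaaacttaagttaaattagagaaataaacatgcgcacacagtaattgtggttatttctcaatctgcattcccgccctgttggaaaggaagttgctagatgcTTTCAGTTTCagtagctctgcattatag
Casp12, chr8:10926938-10927187 (GRCr8): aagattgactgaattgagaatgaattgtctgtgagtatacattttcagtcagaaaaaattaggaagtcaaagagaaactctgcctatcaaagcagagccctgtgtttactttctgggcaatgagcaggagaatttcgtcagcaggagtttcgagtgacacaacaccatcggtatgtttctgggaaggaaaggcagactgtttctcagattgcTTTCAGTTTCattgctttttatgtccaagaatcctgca
The Casp12 sequence also holds the second motif, as TTCTGGGAA beginning 74 bases before the start, which does not overlap the first. A match of letters is a description of the sequence, and no binding was measured here.

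Gsdmd (ENSRNOG00000007728) encodes gasdermin D, the pore-forming protein cut by inflammatory caspases. Its levels were 22.7, 18.8 and 21.4 CPM in control animals, and 33.8, 33.6 and 26.7 CPM in IDPN-4wk animals. Every IDPN-4wk library was above every control library. Its mean was 21.0 ± 1.98 CPM for control and 31.4 ± 4.02 CPM for treated animals (SD, n = 3 per group), a difference of 0.58 on the log2 scale (SE 0.13, 95% interval 0.30 to 0.86, edgeR Padj 0.0101). The fold change was just under the threshold of 1.5, which is 0.58 on the log2 scale, and so Gsdmd was not called. It passed both thresholds in 3 of the 6 leave-one-out fits (without control 1, control 3 or IDPN-4wk 3), where the log2-Fold change ranged from 0.51 to 0.67 over all 6, and also with libraries scaled by size alone (0.69) or by the upper quartile (0.61).

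Gsdmd and Casp4 stood in opposite directions. For every Casp4 count there were 0.692, 0.714 and 0.743 Gsdmd counts in control animals, and 1.75, 2.42 and 1.28 in IDPN-4wk animals. Gsdmd had fewer counts than Casp4 in each control library and more in each treated library. Since the transcripts differ in length, the counts within a library do not rank their abundance, and the comparison is between groups. This ratio, too, was picked with the values in view and was not tested.

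**Figure D2:**
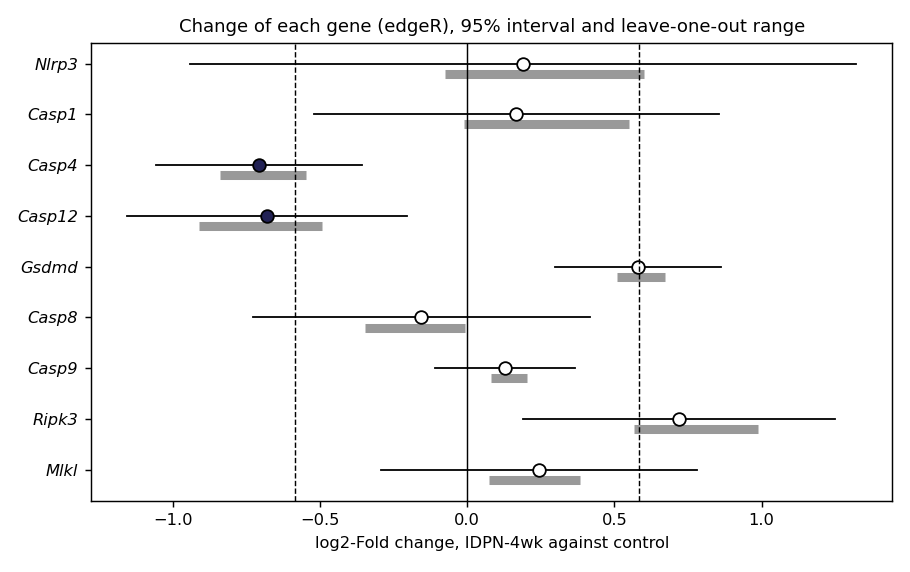
Log2-Fold change of each gene in IDPN-4wk against control libraries by edgeR (circle; filled, past both thresholds), with its 95% interval (black line) and its range when each of the 6 libraries was left out in turn (grey bar). Dashed lines mark a fold change of 1.5 in either direction. Casp4 and Casp12 are filled on the left, Gsdmd at 0.58 lies on the right dashed line, and Nlrp3 has the widest interval, from -0.94 to 1.32.

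Casp8 (ENSRNOG00000012331) encodes the caspase that starts the death receptor route and that restrains RIPK3. Levels were 4.13, 6.22 and 6.87 CPM in control animals and 4.03, 6.24 and 5.09 CPM in IDPN-4wk animals, which overlapped. The log2-Fold change was -0.16 (SE 0.26, 95% interval -0.73 to 0.42, edgeR Padj 0.716). In the GRCr8 annotation Casp8 overlaps Cflar, the gene of an inhibitor of caspase-8, and counting did not separate strands. Cflar had 42.0, 47.9 and 43.2 CPM in control and 36.2, 37.2 and 38.6 CPM in IDPN-4wk animals, so its own levels stood apart without a call (log2-Fold change -0.25, edgeR Padj 0.0779).

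Casp9 (ENSRNOG00000012944), the initiator caspase of the mitochondrial route, had 29.5, 25.1 and 25.8 CPM in control animals and 27.8, 29.9 and 30.2 CPM in IDPN-4wk animals. Control 1 lay among the treated animals. The log2-Fold change was 0.13 with the narrowest interval of the 9 genes (SE 0.11, 95% interval -0.11 to 0.37, edgeR Padj 0.443), which does not reach 1.5-fold in either direction. Cela2a, a pancreatic protease gene that overlaps Casp9, had at most 8 counts in a library.

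Ripk3 (ENSRNOG00000020465), the kinase that starts necroptosis, had 4.07, 6.15 and 3.54 CPM in control animals and 7.19, 7.17 and 8.30 CPM in IDPN-4wk animals. Every treated animal was above every control animal, with control 2 the nearest. Its mean was 4.59 ± 1.38 CPM for control and 7.55 ± 0.650 CPM for treated animals (SD, n = 3 per group), a difference of 0.72 on the log2 scale (SE 0.24, 95% interval 0.19 to 1.25). The adjusted p was 0.0580 by edgeR and from 0.0249 to 0.181 in the leave-one-out fits. Both thresholds were passed without control 2 (log2-Fold change 0.99, Padj 0.0249), with scaling by library size alone (0.83, Padj 0.0261) and with the upper quartile (0.75, Padj 0.0470).

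Ripk3 lies over part of Nfatc4, the gene of a calcium-dependent transcription factor, in the GRCr8 annotation. Nfatc4 had 16.5, 13.5 and 20.0 CPM in control animals and 22.4, 25.7 and 26.7 CPM in IDPN-4wk animals, without overlap, and its log2-Fold change was 0.58 (SE 0.15, edgeR Padj 0.0215), just under the fold threshold. Without strand, reads of this pair in their shared part cannot be told apart. The Ripk3 counts for every Nfatc4 count were 0.247, 0.456 and 0.177 in control and 0.322, 0.279 and 0.312 in IDPN-4wk animals, which overlapped. Within the control group the order of the animals was opposite for the genes, control 2 being highest for Ripk3 and lowest for Nfatc4.

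Mlkl (ENSRNOG00000042353), which carries out the rupture of the membrane in necroptosis, had 4.20, 3.84 and 4.32 CPM in control animals and 5.97, 4.90 and 3.80 CPM in IDPN-4wk animals. IDPN-4wk 3 was the lowest of the 6 and IDPN-4wk 1 the highest. The log2-Fold change was 0.24 (SE 0.24, 95% interval -0.29 to 0.78, edgeR Padj 0.527). IDPN-4wk 3 had the highest Ripk3 of the 6 animals and the lowest Mlkl, the latter close to that of control 2. Whether Ripk3 and Mlkl changed differently was not tested. The Casp8 counts for every Ripk3 count were 1.02, 1.01 and 1.94 in control and 0.560, 0.871 and 0.612 in IDPN-4wk animals, lower in every treated animal. The Mlkl counts for every Ripk3 count, 1.03, 0.625 and 1.22 in control and 0.830, 0.683 and 0.457 in IDPN-4wk animals, overlapped between the groups. Both ratios were picked with the values in view.

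For each gene, the 3 tested genes whose log2 CPM followed it most closely over the 6 libraries were identified. Such correlations include the difference between the groups and the libraries' scaling, and with 14352 genes tested and 6 libraries high values are common, so they are given as a description. The closest to Casp4 was Prx (Pearson's r 0.999), and Pmp22 (0.993) was also among its 3. Prx encodes periaxin and Pmp22 a peripheral myelin protein, both made by myelinating Schwann cells. Prx had 725, 619 and 659 CPM in control and 477, 375 and 516 CPM in IDPN-4wk animals, lower by a log2-Fold change of -0.55 with an SE of 0.11 (edgeR Padj 0.00656), and ordered the 6 animals as Casp4 did. Pmp22 fell with a log2-Fold change of -0.59 (edgeR Padj 0.0148) and was the only one of the 7 Schwann cell markers past both thresholds, while 6 of the 7 had negative values and the median over the list was -0.42. The Casp4 counts for every Prx count were 0.0451, 0.0426 and 0.0438 in control and 0.0406, 0.0370 and 0.0404 in IDPN-4wk animals. This ratio was lower in each IDPN-4wk animal than in each control animal. Prx was picked as the gene most alike to Casp4, so the ratio is no test. The part of Schwann cell RNA in the lower Casp4 level was not tested.

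**Figure D3:**
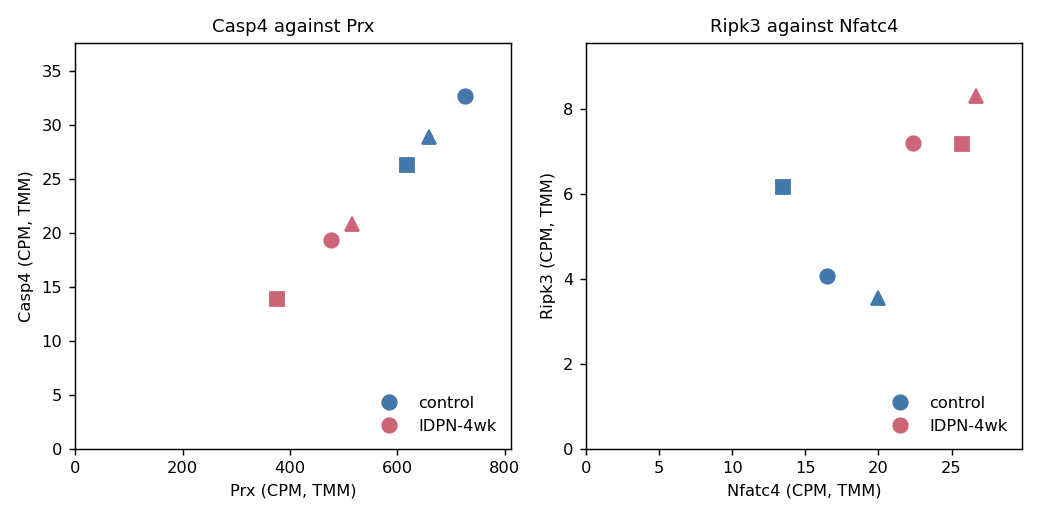
Left, level of Casp4 against Prx in the 6 libraries; right, level of Ripk3 against Nfatc4, both in CPM after TMM scaling on axes that start at 0 (blue, control; red, IDPN-4wk; circle, square and triangle, replicates 1, 2 and 3). Casp4 and Prx order the 6 libraries alike, from IDPN-4wk 2 (13.9 and 375 CPM) to control 1 (32.7 and 725 CPM), whereas Ripk3 and Nfatc4 are both higher in the treated libraries and run in opposite order within the control libraries.

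The genes closest to Gsdmd were Lgals1 (0.999), the gene of galectin-1, Plrg1 (0.997) and Hexim1 (0.997), an inhibitor of transcription elongation. Those closest to Ripk3 included Btbd17 (0.993) and Ccdc6 (0.993), and those closest to Casp12 were Hps5 (0.997), LOC100362999 (0.987) and Eef1g (0.979). Casp9 was followed by Glb1l2 (0.996), the clock gene Per2 (0.991) and the glucocorticoid-induced Tsc22d3 (0.991). The lists were Art1, Cdipt and Tpd52 for Casp1 (0.969 to 0.988), Kcng1, Gnptg and Tmem68 for Casp8 (0.972 to 0.981), Zbtb42, Smad5 and Sephs2 for Mlkl (0.986 to 0.992) and Golph3l, Rnf8 and Ccp110 for Nlrp3 (0.986 to 0.997). Among the 9 genes themselves, the most alike were Gsdmd and Mlkl (0.765), Casp4 and Casp12 (0.752) and Casp1 and Ripk3 (0.719), and the most opposed were Casp12 and Ripk3 (-0.97).

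Macrophages and other leukocytes also express inflammatory caspases, Nlrp3 and Gsdmd. Of the 12 macrophage markers, 6 were higher and 6 lower in IDPN-4wk animals, the median of their log2-Fold changes was 0.03, and only C1qb passed both thresholds (0.71). The pan-leukocyte gene Ptprc had 3.75, 1.89 and 2.55 CPM in control and 3.81, 0.93 and 3.15 CPM in IDPN-4wk animals. It was lowest in the second animal of each group, as was Nlrp3, and the only other macrophage marker with this pattern was Aif1. Most of the 12 macrophage markers were lowest in control 3 among the control animals and in IDPN-4wk 2 among the treated animals. The part of these cells in the values of Nlrp3, Casp1 and Gsdmd was not tested.

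The surrounding pathways were examined with 7 lists of other genes, 85 in all, of which 60 were tested. Of these, 6 were called higher (Casp6, Tnfrsf1a, Txnip, Gbp2, Il1r2 and Irf1) and 1 lower (Il18bp), and 39 had positive and 21 negative values, their median being 0.08 on the log2 scale. With glmTreat, Gbp2 and Il18bp were called and the other 5 were not. Over all genes tested, 3.09% were called higher and 6.62% lower. The groups did not overlap in 23 of the 60, a share like the 37.8% of all genes.

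Among the 16 tested genes of apoptosis execution, 13 had positive values, the median was 0.19 and Casp6 passed both thresholds. Casp6, an executioner caspase, rose from 3.75, 4.47 and 5.66 CPM in control to 8.41, 8.77 and 8.50 CPM in IDPN-4wk animals (log2-Fold change 0.89, SE 0.21, edgeR Padj 0.0132), and this call held whichever library was left out. The initiators Casp8 and Casp9, described above, had -0.16 and 0.13 on the same scale. The negative value with the smallest p was that of Dffa, the inhibitor of the apoptotic nuclease (-0.18, edgeR Padj 0.265).

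Among 12 genes of death receptor signalling, 7 had positive values and the median was 0.05. Tnfrsf1a, the main receptor of tumour necrosis factor, rose by 0.60 on the log2 scale (SE 0.12, edgeR Padj 0.00524), its means being 57.0 ± 4.38 CPM and 86.1 ± 13.9 CPM (SD, n = 3 per group). Its fold change lies near the threshold, and it was called in 3 of the 6 leave-one-out fits. Cflar, described above with Casp8, had the smallest p of the lower genes. The ligand genes Tnf and Faslg had at most 4 and 3 counts in a library and were not tested.

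The list of inflammasome sensing, with 10 tested genes, had 5 positive and 5 negative values and a median of 0.01. Gbp2, an interferon-inducible guanylate-binding protein that helps expose intracellular lipopolysaccharide to inflammatory caspases, rose from 13.8, 11.9 and 15.9 CPM in control to 81.0, 50.7 and 30.2 CPM in IDPN-4wk animals (log2-Fold change 1.96, SE 0.29, edgeR Padj 0.00105). The treated animals differed widely among themselves but were all above the controls. Txnip, a thioredoxin inhibitor that can bind NLRP3, rose from 472 ± 47.9 to 767 ± 75.9 CPM (log2-Fold change 0.70, edgeR Padj 6.92e-04). Nek7, a partner of NLRP3, had the smallest p of the lower genes (-0.20, edgeR Padj 0.298). The adaptor gene Pycard, which joins NLRP3 to caspase-1, had 3.40 ± 0.610 CPM for control and 3.21 ± 0.476 CPM for IDPN-4wk animals (-0.08, edgeR Padj 0.865), and was named after its values were seen.

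The 5 tested genes of the interleukin-1 family had a median of 0.27. Il18bp, whose product neutralises interleukin-18, fell from 13.0, 25.2 and 22.0 CPM in control to 4.82, 6.50 and 6.70 CPM in IDPN-4wk animals (log2-Fold change -1.73, SE 0.24, edgeR Padj 7.22e-04). Il1r2, the decoy receptor that binds interleukin-1 without signalling, rose from 36.3 ± 1.61 to 60.4 ± 8.34 CPM (log2-Fold change 0.73, edgeR Padj 9.53e-04). Both calls held in all 6 leave-one-out fits. The genes called in this list thus encode inhibitors of the cytokines that caspase-1 matures, 1 higher and 1 lower. The cytokine genes themselves were close to the detection limit, with Il1b at 21 counts in control 3 and at most 8 elsewhere, and Il18 at most 9 counts in any library.

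The 4 tested genes of other gasdermins and membrane rupture and the 9 tested regulators of necroptosis contained no call. Gsdme, a gasdermin that is cut during apoptosis, had 2.94 ± 0.0933 CPM for control and 4.27 ± 0.617 CPM for IDPN-4wk animals (0.54, edgeR Padj 0.152). Chmp3, of the membrane repair machinery, had the smallest p of the lower genes in the first list (-0.18, edgeR Padj 0.114). In the necroptosis list these were Tbk1 for the higher (0.14, edgeR Padj 0.356) and Tnfaip3 for the lower genes (-0.48, edgeR Padj 0.103). Their medians were 0.02 and 0.03. Zbp1, an activator of RIPK3, had at most 8 counts in a library, and Map3k7 was at 0 in 5 libraries although most cells use it, so a low value in the table does not show that a transcript was missing.

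Of 4 interferon transcription factors, Irf1 rose from 14.5, 18.4 and 16.1 CPM in control to 38.5, 28.5 and 29.0 CPM in IDPN-4wk animals (log2-Fold change 0.97, SE 0.15, edgeR Padj 0.00122), and the call held in all 6 leave-one-out fits. Irf2 had -0.05 (edgeR Padj 0.754). Of the genes whose promoters hold an interferon motif, Casp12 was called lower, and Casp1 and Nlrp3 had log2-Fold changes of 0.17 and 0.19 without a call.

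**Figure D4:**
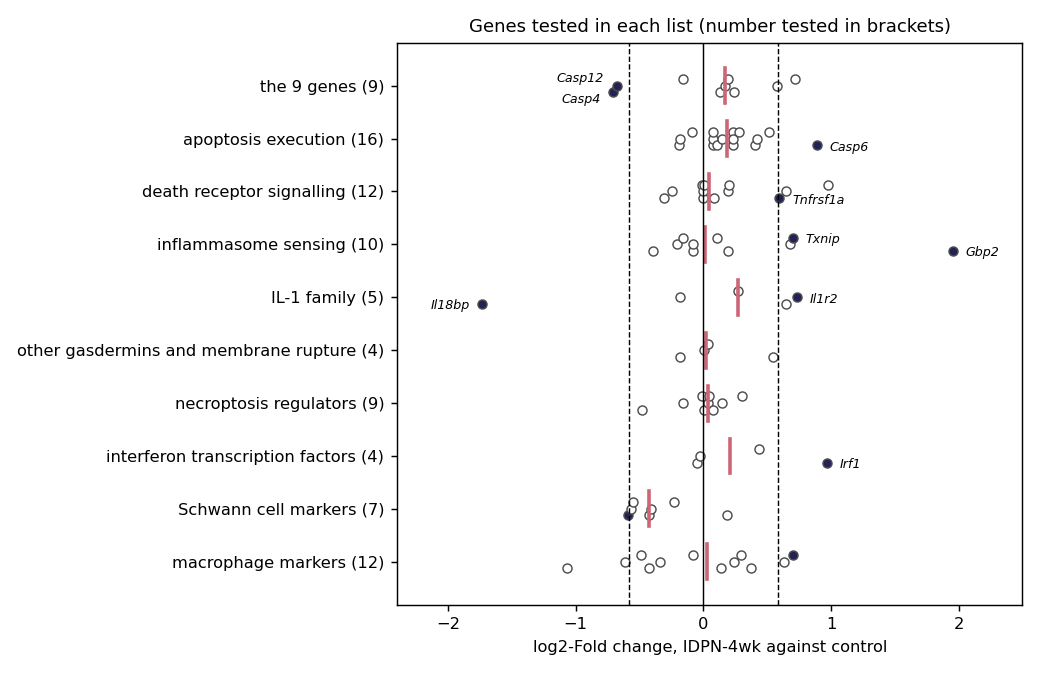
Log2-Fold change in IDPN-4wk against control libraries of every tested gene in the 9 genes, in 7 pathway lists and in the Schwann cell and macrophage markers (circle; filled, past both thresholds; number tested in brackets). Red bars are list medians and dashed lines a fold change of 1.5 in either direction. Gbp2 at 1.96 and Il18bp at -1.73 are the farthest from 0, and the Schwann cell list has a median of -0.42.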

How the data were processed

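RNA-seq was analysed in 6 libraries, grouped by the treatment label. The authors made SMART-seq2 libraries from oligo-dT primed cDNA, which do not keep strand, and per the submitters' processing notes used STAR 2.5.3a and RSEM 1.3.0. The deposited values are expected counts for each gene. They were whole numbers as deposited, so rounding changed none. Of 32883 genes, 18838 had a count, and filterByExpr (minimum count 10, minimum total count 15) left 14352. After TMM scaling, glmQLFit and glmQLFTest of edgeR 4.0.16 (R 4.3.3) compared the groups, with Benjamini-Hochberg adjustment over all tested genes (Padj). The script was tested on simulated data. Genes with Padj under 0.05 and a fold change over 1.5 were called. The SE was taken from the quasi F statistic, and intervals are 95%. The biological coefficient of variation was 0.124. Correlations used log2 CPM (prior count 2). The limit of 3 counts covers counting error only, while the 95% intervals also include variation between animals. Reads had no molecular identifiers.

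The genes and lists were chosen with earlier results of these data known, so no list was tested and nothing was adjusted over a list. Named genes were the 9 genes, every called gene of a pathway list or, where a direction had no call, its gene with the smallest p, and the 3 genes most alike to each of the 9. Other names were chosen after their values were seen. Some genes that these rules name are not reported here. Of the 85 list genes, 77 had a row with counts, and the other 8 were not analysed here. Neighbouring genes and promoters are from RefSeq (GRCr8), which is not the build of the counts, and no coordinates were taken from the counts. Proteins and coding lengths were not used here, so levels are not compared between genes. Replicates were numbered by accession order, and the labels give a single batch, so there was no comparison within batches. Animal codes in the labels share a prefix among the treated rats, and the control rats carry other prefixes, not all alike. What the prefixes mark is not stated. Alternatives were other scalings, DESeq2 1.42.0, other filters, other uses of the fold change and leaving out each library.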

Additional observations from a re-analysis of the deposited data

How the results depend on the processing

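No paired analysis was made, since each library is a different animal and the labels give no pairing of animals. No direction of the 9 genes turned under another scaling, filter or tool. Leaving out a library turned the sign of Casp1 (-0.011 without control 1) and Nlrp3 (-0.074 without control 2, -0.068 without IDPN-4wk 1 and -0.045 without IDPN-4wk 3), whose highest leave-one-out values were 0.55 and 0.60. Over the leave-one-out fits, the log2-Fold change was from -0.84 to -0.55 for Casp4, from -0.91 to -0.49 for Casp12, from 0.51 to 0.67 for Gsdmd and from 0.56 to 0.99 for Ripk3, and the number of the 9 genes called was from 0 to 2 lower and from 0 to 1 higher, beside 768 to 1095 lower and 317 to 486 higher of all genes. The 0 lower is the fit without IDPN-4wk 2, in which Casp4 and Casp12 had -0.55 and -0.68. With library size alone, 1 of the 9 genes was called lower (Casp4) and 2 higher (Gsdmd 0.69, Ripk3 0.83), Casp12 was at -0.57, and of all genes 780 were called lower and 762 higher. The upper quartile gave the same numbers of the 9 genes (1 lower, 2 higher; Gsdmd 0.61, Ripk3 0.75, Casp12 -0.65), beside 896 lower and 519 higher of all genes. The median of all tested genes was 0.02 with TMM and 0.13 with library size alone.

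With glmTreat, which tests against the fold change of 1.5 itself, 354 of all genes were called lower and 99 higher, in place of 950 and 444. It called 0 of the 9 genes in either direction, with Casp4 at -0.71 (Padj 0.913) and Casp12 at -0.68, and 1 pathway gene higher (Gbp2), in place of 6. An adjusted p alone called 1646 of all genes lower and 1132 higher, and of the 9 genes 2 lower (Casp4 and Casp12) and 1 higher (Gsdmd). The calls of Casp12, Gsdmd and Ripk3 thus depend on the scaling and on single libraries, and the cause was not tested. Nlrp3 was removed by the filter of a mean count of 50. Counts of Nlrp3, Casp1, Casp8, Ripk3 and Mlkl were at most 139 in a library, which limits their precision, as does the number of animals.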
